A study of Homo sapiens with 6 samples.

Results

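The ribosomal protein genes encode the proteins that join ribosomal RNA to build the small and the large subunit of the cytoplasmic ribosome. They were taken by symbol, as protein-coding genes on chromosomes 1 to 22 and X named RPS or RPL and a number (with at most a letter A, X or L and a further digit after it), plus RPLP0, RPLP1, RPLP2 and RPSA. This gave 84 genes of 19974 protein-coding genes in all, with 32 genes of the small subunit (RPS symbols and RPSA) and 52 of the large subunit (RPL symbols). No measured value entered this symbol rule, but it was chosen with earlier results of these data known. The symbol rule also takes in 7 paralogous copies (RPL3L, RPL7L1, RPL10L, RPL22L1, RPL26L1, RPL39L and RPS27L) and leaves out RPL36AL and the ribosomal protein fusion FAU.

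H3K27ac, the acetylation of lysine 27 on histone H3 that marks active promoters and enhancers, was profiled in 2 established human cell lines of T-cell acute lymphoblastic leukaemia, abbreviated T-ALL. There was 1 library of 6T-CEM cells and there were 2 libraries of Jurkat cells, named replicate 1 and replicate 2, and the 3 IgG samples of the series were not analysed here. The labels give the line, T-ALL cells and the antibody for each library, and no genotype. The series title names GNE-987, an inhibitor of the BET bromodomain proteins that bind acetylated histones, and the series description mentions 10 nM for 24 h, but the sample labels are silent on treatment. Any library may therefore come from treated or from untreated cells, and no treatment was compared. The deposited data are peak lists, 1 for each library, with no read counts, so the depth is unknown.

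The lists held 35154 peaks in 6T-CEM, 16159 peaks in Jurkat replicate 1 and 32097 peaks in Jurkat replicate 2 on the chromosomes used. Of 10 T-cell genes such as CD3D and LCK, 9 had a peak within 1 kb of a gene end in 6T-CEM, 6 did so in Jurkat replicate 1 and 9 did so in Jurkat replicate 2. The 5 erythroid genes and the 4 genes of non-blood tissues had none in any library, while 1 of 4 B-cell genes had a peak in all 3 libraries and 1 of 4 myeloid genes, CSF1R, had a peak in 6T-CEM and in Jurkat replicate 2. With 1 library of 6T-CEM there was no spread for that line, and the lines were not tested against each other. The difference between the Jurkat libraries is given in its place, and nothing in the labels says whether these came from separate cultures.

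Ribosomal protein genes are transcribed in nearly all cells, and in growing cells they take a large share of transcription. Their messenger RNAs usually begin with a cytidine and an unbroken run of pyrimidines, the 5′ terminal oligopyrimidine (TOP) motif, through which mTOR signalling sets their translation. Several are linked to blood disease: germline loss of RPS19, RPL5, RPL11 and others causes Diamond-Blackfan anaemia, a failure of red cell production, and RPL5, RPL10, RPL11 and RPL22 are mutated or deleted in some T-ALL. Many also carry small nucleolar RNAs (snoRNAs), which guide the modification of ribosomal RNA, in their introns.

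The promoter windows show the feature that the members share and that the rule did not use. RefSeq promoter sequences on GRCh38.p14 matched 67 of the 84 members, with 83 annotated starts. Each stretch below runs from 60 bases before an annotated start to 20 bases from the start on, in the direction of transcription, and the capitals mark the unbroken pyrimidine run that begins at the annotated start base. The first set shows starts of members described below for their peak widths or their disease links, and the run is present in each of them.
RPLP1 (chr15:69452758-69452837, plus strand): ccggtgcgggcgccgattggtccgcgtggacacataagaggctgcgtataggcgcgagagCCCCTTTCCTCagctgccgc
RPS19 (chr19:41860195-41860274, plus strand): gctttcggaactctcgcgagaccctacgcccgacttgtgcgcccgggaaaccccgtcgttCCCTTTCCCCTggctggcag
RPL11 (chr1:23691746-23691825, plus strand): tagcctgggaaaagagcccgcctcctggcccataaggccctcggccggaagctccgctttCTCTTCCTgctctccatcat
RPL22 (chr1:6199576-6199655, minus strand): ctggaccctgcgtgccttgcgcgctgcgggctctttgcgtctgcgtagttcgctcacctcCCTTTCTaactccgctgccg
RPL13A (chr19:49487548-49487627, plus strand): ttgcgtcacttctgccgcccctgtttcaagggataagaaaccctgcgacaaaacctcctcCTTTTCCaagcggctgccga
RPL41 (chr12:56116573-56116652, plus strand): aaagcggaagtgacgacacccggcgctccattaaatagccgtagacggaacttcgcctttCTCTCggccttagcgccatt
RPS27 (chr1:153990702-153990781, plus strand): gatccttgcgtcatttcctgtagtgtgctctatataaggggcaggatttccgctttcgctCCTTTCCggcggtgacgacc
RPS9 (chr19:54200798-54200877, plus strand): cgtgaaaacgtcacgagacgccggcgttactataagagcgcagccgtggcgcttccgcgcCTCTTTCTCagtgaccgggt
RPS24 (chr10:78033803-78033882, plus strand): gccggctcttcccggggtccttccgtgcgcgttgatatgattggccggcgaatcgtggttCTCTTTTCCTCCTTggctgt
RPS12 (chr6:132814509-132814588, plus strand): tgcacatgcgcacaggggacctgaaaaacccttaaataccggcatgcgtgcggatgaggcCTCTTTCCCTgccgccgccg
The next set shows annotated starts at which no run begins: those of RPL10L, a testis-expressed copy of RPL10 without introns, RPS4X, the X-linked gene of a small-subunit protein, and RPL15, a large-subunit gene whose listed start nearest to its summits is shown.
RPL10L (chr14:46651762-46651841, minus strand): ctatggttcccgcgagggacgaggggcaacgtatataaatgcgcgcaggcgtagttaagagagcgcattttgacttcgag
RPS4X (chrX:72277229-72277308, minus strand): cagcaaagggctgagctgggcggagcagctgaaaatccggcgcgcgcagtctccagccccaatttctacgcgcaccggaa
RPL15 (chr3:23917072-23917151, plus strand): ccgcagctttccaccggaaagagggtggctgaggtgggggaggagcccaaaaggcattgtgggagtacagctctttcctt

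A run of C followed by at least 4 pyrimidines began exactly at an annotated start in 47 of the 67 members (70.1%), against 6.24% of the 15812 genes with a promoter entry and 8.52% of the 4423 of those marked in every library, that is, with a peak within 1 kb of a gene end. When the run could begin within 5 bases of the start, it was found in 54 members (80.6%), against 28.0% of all genes and 30.3% of the genes marked in every library. The longest run at the start base was 19 bases, in RPL39. The 13 members without a run within 5 bases were the paralogous copies RPL10L, RPL26L1, RPL7L1 and RPS27L, and RPL6, RPL9, RPL15, RPL17, RPL27, RPS4X, RPS15, RPS26 and RPS29. The copy RPL22L1 had a run. The printed stretch of RPL15 ends in a pyrimidine run that begins more than 5 bases after its annotated start, so absence here refers to annotated starts only.

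Other promoter letters were searched on both strands of the 250 bases before to 50 bases after each start. CCGGAAG, a binding motif of ETS factors, was present in 24 of the 67 members (35.8%), against 16.5% of all genes and 28.3% of the genes marked in every library. CTCGCGAG, a palindrome seen in CpG-island promoters, was present in 6 members (8.96%), namely RPL17, RPL26, RPL27A, RPL4, RPS19 and RPS6, against 1.80% of all genes and 3.62% of the marked genes. AAGATGG, the core of the YY1 motif, was present in 9 members (13.4%), against 7.90% and 12.5%. GGGCGG, the GC box of SP and KLF factors, was present in 39 members (58.2%), against 64.2% and 75.8%. TATAAA anywhere in the window was present in 7 members (10.4%), against 12.4% and 7.71%, whereas TATA between 40 and 20 bases before a start, on the strand of the gene, was present in 13 members (19.4%), against 9.23% and 5.40%. These are matches of letters only, and overlaps between motifs were not removed.

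Nearly every ribosomal protein gene carried H3K27ac near a gene end in both lines. A peak was counted as near when it shared at least 1 base with the window within 1 kb of either annotated end. In 6T-CEM 81 of 84 members had a near peak (96.4%, 95% Clopper-Pearson interval 89.9% to 99.3%), against 41.3% of all protein-coding genes. In Jurkat replicate 1 there were 77 such members (91.7%, interval 83.6% to 96.6%), against 37.9% of all genes. In Jurkat replicate 2 there were 79 (94.0%, interval 86.7% to 98.04%), against 34.0% of all genes. The intervals cover counting error only. All 3 libraries agreed on 75 members (89.3%, interval 80.6% to 94.98%), against 26.2% of all genes. All 32 small-subunit genes had a near peak in 6T-CEM, 30 did so in Jurkat replicate 1 and 31 did so in Jurkat replicate 2, and of the 52 large-subunit genes 49, 47 and 48 did in the same order of libraries. When each list was shortened to its 16159 peaks of highest −log10 q, 71 members were marked in 6T-CEM, 77 were in Jurkat replicate 1 and 72 were in Jurkat replicate 2, against 27.2%, 37.9% and 24.3% of all genes.

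Lower shares were found for other sets of genes that most cells use. Of the 77 mitochondrial ribosomal protein genes, which serve the separate ribosome of the mitochondrion, 85.7% had a near peak in 6T-CEM, 84.4% did so in Jurkat replicate 1 and 66.2% did so in Jurkat replicate 2, and 62.3% had one in every library. For the 39 proteasome subunit genes the shares were 69.2%, 84.6% and 84.6%, with 61.5% in every library. For the 84 genes of the respiratory chain and ATP synthase they were 72.6%, 76.2% and 64.3%, with 58.3% in every library. The interval of the ribosomal protein genes for every library (80.6% to 94.98%) lay above those of the mitochondrial ribosomal protein genes (50.6% to 73.1%), the proteasome genes (44.6% to 76.6%) and the respiratory genes (47.1% to 69.0%). Such intervals cover counting error only, and no test between the classes was made. Within single libraries intervals overlapped in part. In Jurkat replicate 1 the members' interval overlapped those of all 3 classes. It also overlapped that of the mitochondrial ribosomal protein genes in 6T-CEM and that of the proteasome genes in Jurkat replicate 2. Of 20 other genes of the ribosome and translation, 19 had a near peak in 6T-CEM, 18 did so in Jurkat replicate 1 and 15 did so in Jurkat replicate 2, with 15 in every library. The interval of that last share (50.9% to 91.3%) overlapped that of the members. Among these translation genes RACK1, a protein of the small subunit, had near-peak widths of 2387, 2513 and 2570 bp in 6T-CEM, Jurkat replicate 1 and Jurkat replicate 2.

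**Figure D1:**
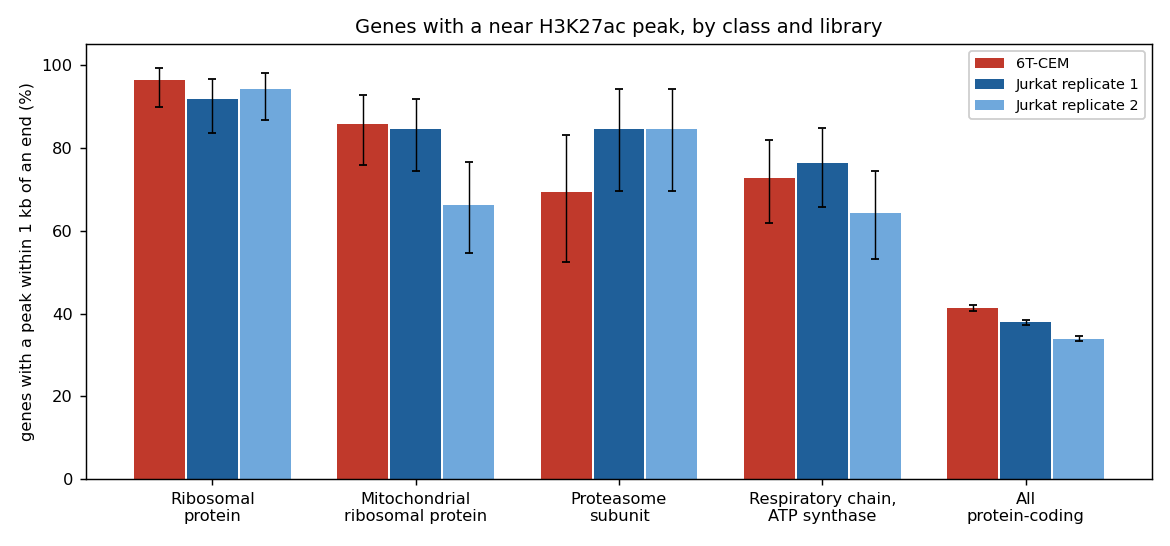
Share of genes with an H3K27ac peak within 1 kb of a gene end (vertical axis, %) for each gene class, with a bar for 6T-CEM, Jurkat replicate 1 and Jurkat replicate 2 and error bars for the 95% Clopper-Pearson interval. The ribosomal protein genes stand at 96.4%, 91.7% and 94.0%, and all protein-coding genes at 41.3%, 37.9% and 34.0%.

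Of the 84 members 9 lacked a near peak in at least 1 library. RPL10L (chr14:46651010-46651781) had none, and its closest peak lay 1398 kb away in 6T-CEM, 1515 kb away in Jurkat replicate 1 and 1398 kb away in Jurkat replicate 2. RPL3L (chr16:1943974-1954689), a copy of RPL3 used in striated muscle, had none either, with the closest peak 4515 bp away in 6T-CEM, 4883 bp away in Jurkat replicate 1 and 4890 bp away in Jurkat replicate 2. RPL26L1 (chr5:172954094-172969771), a copy of RPL26, had none at its outermost ends. Annotated starts inside its span, at positions 172958729 and 172958880, did have peaks close by in all 3 libraries, with peaks of 299 and 325 bp in 6T-CEM, a peak of 517 bp in Jurkat replicate 1 and a peak of 509 bp in Jurkat replicate 2. These 3 genes are paralogous copies, and the other 4 such copies had a near peak in every library.

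Members without a near peak in Jurkat replicate 1 included RPS24, RPS12 and RPL36A, and RPS20 and RPL7 lacked one in Jurkat replicate 2. RPS24 (chr10:78033863-78056806), a small-subunit gene of the anaemia group, had 546 bp of near peak in 6T-CEM, none in Jurkat replicate 1 and 294 bp in Jurkat replicate 2. That last peak had a −log10 q of 2.16, beside a lowest deposited value of 2.00 in the list. RPS12 (chr6:132814569-132817564), of the small subunit, had 1974 bp in 6T-CEM, none in Jurkat replicate 1 and 1196 bp in Jurkat replicate 2. The closest peak of Jurkat replicate 1 was 160 kb from RPS24 and 301 kb from RPS12, so neither gene missed the window narrowly. RPL36A (chrX:101391011-101396155) had 529 bp in 6T-CEM, none in Jurkat replicate 1 and 552 bp in Jurkat replicate 2. It encodes a large-subunit protein, and the closest peak of Jurkat replicate 1 was 11.3 kb away. RPS20, on chromosome 8, had 474 bp in 6T-CEM, 579 bp in Jurkat replicate 1 and none in Jurkat replicate 2. RPL7, on the same chromosome, had 1473 bp in 6T-CEM, 1205 bp in Jurkat replicate 1 and none in Jurkat replicate 2. No member was marked in both Jurkat libraries but unmarked in 6T-CEM, a pattern shown by 484 of all genes (2.42%). Jurkat replicate 1 had the shortest list, and the part of list length in these absences was not tested beyond the shortened lists above.

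The marked members had a higher median width and a higher median fold than all marked genes in each library. The near-peak width is the summed whole width of a gene's near peaks. Its median over the marked members was 1473 bp in 6T-CEM, 1373 bp in Jurkat replicate 1 and 1261 bp in Jurkat replicate 2, against 1133, 1098 and 998 bp over all marked genes. Ranked within the library, the median member stood at the 64.8th percentile of width in 6T-CEM, the 64.7th for Jurkat replicate 1 and the 62.3rd for Jurkat replicate 2. The fold of a peak is the authors' enrichment over the background of the peak caller. The median of the highest fold was 5.74 in 6T-CEM, 6.53 for Jurkat replicate 1 and 5.05 for Jurkat replicate 2, against 4.66, 5.73 and 4.53 over all marked genes. Folds come from separately called lists, so they are compared within a library only. The mitochondrial ribosomal protein genes had median widths of 893.5, 983 and 889 bp in the same order of libraries, below the median of all marked genes in each. The respiratory genes had 1044, 985.5 and 926.5 bp, and the proteasome genes 856, 1472 and 1098 bp.

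The width of most members came from a single peak. In 6T-CEM 72 members had 1 near peak and 9 had 2. In Jurkat replicate 1 these numbers were 65 and 9, with 3 members having 3 peaks. In Jurkat replicate 2 they were 61 and 15, with 2 members having 3 peaks and RPLP2 having 4. Ribosomal protein genes are compact: their median span was 5046 bp, against 24350.5 bp for the other protein-coding genes. Among genes with a peak at the start, all peaks together covered a median of 16.3% of the gene body of the members in 6T-CEM, 15.7% for Jurkat replicate 1 and 15.1% for Jurkat replicate 2, against 3.80%, 2.82% and 4.29% for the other genes. The 29 members with an annotated snoRNA inside, 60 snoRNAs in all, had median near-peak widths of 1546, 1604 and 1556 bp in 6T-CEM, Jurkat replicate 1 and Jurkat replicate 2, against 1388, 1268 and 1178 bp for the other members with a near peak.

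**Figure D2:**
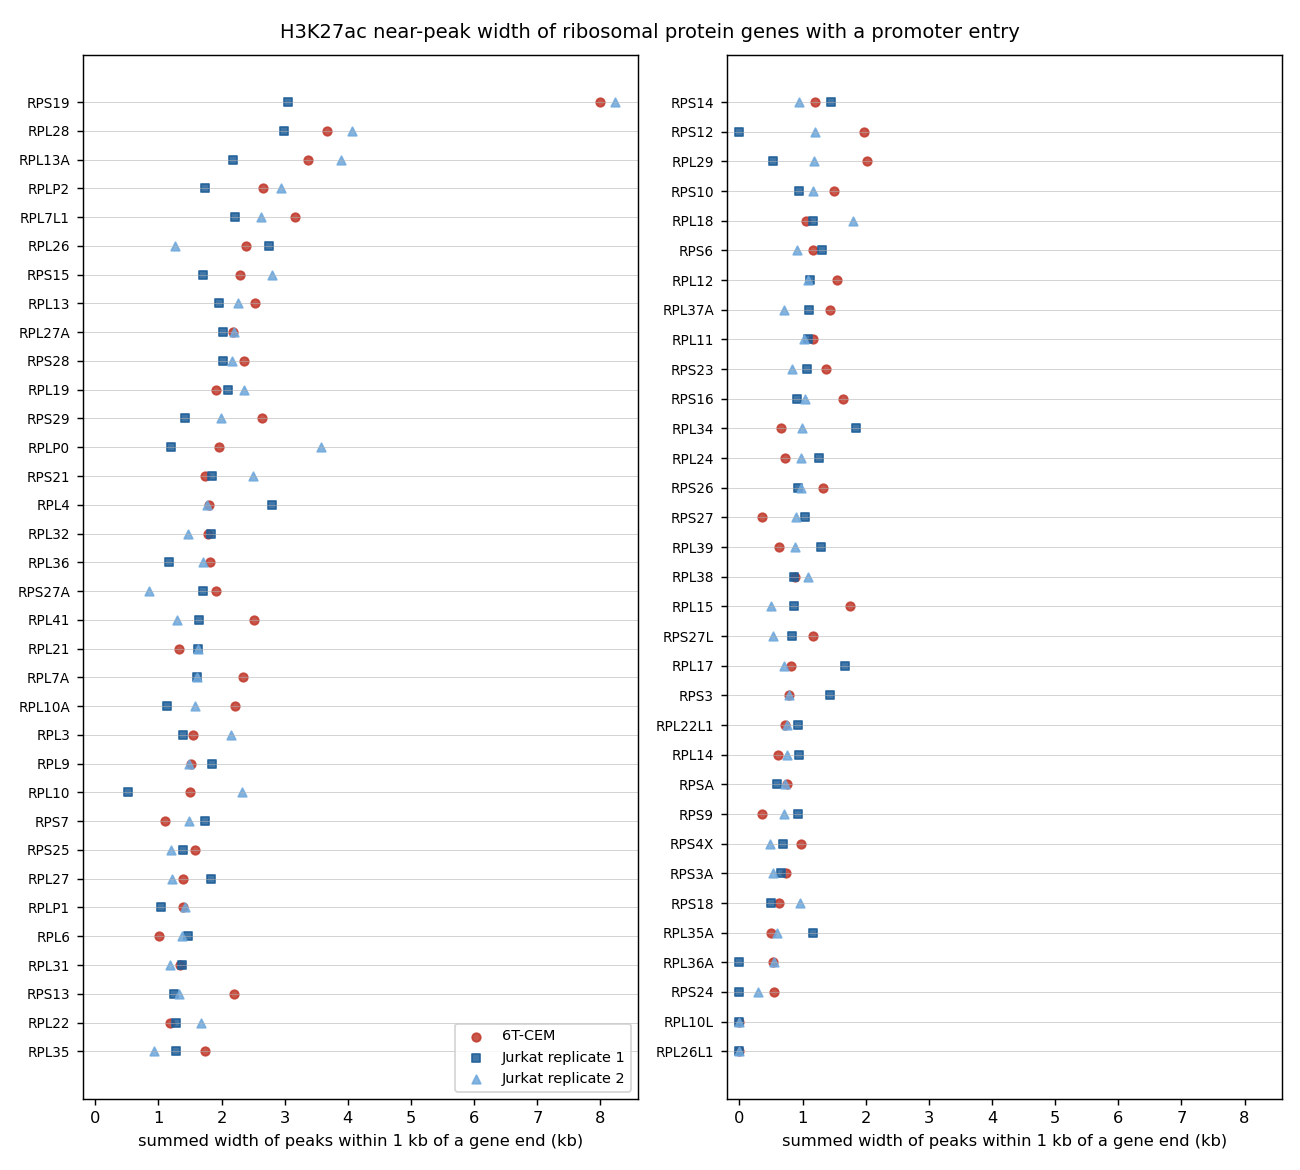
Summed width of the H3K27ac peaks within 1 kb of a gene end (horizontal axis, kb) for each of the 67 members with a promoter entry, ordered by their median, with a circle for 6T-CEM, a square for Jurkat replicate 1 and a triangle for Jurkat replicate 2. RPS19 stands at 7990, 3046 and 8231 bp in this order, and RPL10L and RPL26L1 stand at 0 in all 3 libraries.

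RPS19 (chr19:41860255-41872925), which encodes a small-subunit protein and is the gene most often mutated in Diamond-Blackfan anaemia, had the widest sum in every library. It had 7990 bp in 6T-CEM, 3046 bp in Jurkat replicate 1 and 8231 bp in Jurkat replicate 2. The peak at the pyrimidine start printed above was much alike in the 3 libraries, at 1650, 1859 and 1810 bp. The rest lay at the far end of the gene, with a peak of 6340 bp in 6T-CEM, peaks of 838 and 349 bp in Jurkat replicate 1 and a peak of 6421 bp in Jurkat replicate 2. The far-end peak had 5542 of its bases inside RPS19 in 6T-CEM and lay wholly inside it in Jurkat replicate 2. The next annotated protein-coding gene was CD79A, which encodes a subunit of the B-cell receptor, and it began 3556 bp beyond the peak in 6T-CEM and 4838 bp beyond it in Jurkat replicate 2.

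Other members of great width also lie on chromosome 19. RPL28 (chr19:55385932-55403342) had 3671 bp in 6T-CEM, 2984 bp in Jurkat replicate 1 and 4063 bp in Jurkat replicate 2. RPL13A (chr19:49487608-49492308), a large-subunit protein also known for silencing of inflammatory messages outside the ribosome, had 3364 bp in 6T-CEM, 2179 bp in Jurkat replicate 1 and 3892 bp in Jurkat replicate 2. At RPL28 and RPL13A the 6T-CEM value lay between the Jurkat values. RPL7L1, a copy of RPL7 on chromosome 6, had 3163 bp in 6T-CEM, 2219 bp in Jurkat replicate 1 and 2629 bp in Jurkat replicate 2, and it shared a near peak with the neighbouring gene PEX39 in each library. RPS2, on chromosome 16, had 2046 bp in 6T-CEM, 2827 bp in Jurkat replicate 1 and 3974 bp in Jurkat replicate 2, and was lower in 6T-CEM than in both Jurkat libraries. RPL4, of the large subunit, had 1808 bp in 6T-CEM, 2799 bp in Jurkat replicate 1 and 1768 bp in Jurkat replicate 2. Over the 12 members of chromosome 19 the median width was 2220.5 bp in 6T-CEM, 2020 bp in Jurkat replicate 1 and 2291 bp in Jurkat replicate 2, against 1240, 1119 and 1055 bp over all marked genes of that chromosome. Chromosome 19 is given here because wide members lie on it. On chromosome 3, next in number with 9 members, the members were the narrower. Their medians there were 761, 950 and 754 bp, against 1024, 1035.5 and 932.5 bp over all marked genes.

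The narrowest members differed from library to library. In 6T-CEM they were RPS9 (354 bp), RPS27 (366 bp), RPS20 (474 bp), RPL35A (494 bp) and RPL36A (529 bp). In Jurkat replicate 1 they were RPS18 (507 bp), RPL10 (511 bp), RPL29 (532 bp), RPS20 (579 bp) and RPSA (589 bp). In Jurkat replicate 2 they were RPS24 (294 bp), RPS4X (482 bp), RPL15 (506 bp), RPS27L (533 bp) and RPS3A (534 bp). RPS20 was the gene named in more than a single library, and it had no near peak in Jurkat replicate 2. Members with TATA between 40 and 20 bases before a start, RPS9 and RPS27 among them, had lower medians than the rest, a split chosen after these widths were seen. The medians were 751.5 bp in 6T-CEM (12 members), 1126 bp in Jurkat replicate 1 (11 members) and 969 bp in Jurkat replicate 2 (12 members), against 1512, 1390 and 1216 bp for members without TATA there. Over all genes with a promoter entry the split ran the other way, with 1440, 1344 and 1150 bp with TATA and 1113, 1100 and 991 bp without.

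The members with known roles outside the bulk of the ribosome were followed as groups. The stalk proteins RPLP0, RPLP1 and RPLP2 form the arm of the large subunit that recruits elongation factors. RPLP0 had 1957 bp in 6T-CEM, 1197 bp in Jurkat replicate 1 and 3567 bp in Jurkat replicate 2. RPLP1 had 1388, 1046 and 1418 bp, and RPLP2 had 2662, 1735 and 2946 bp, in the same order of libraries. By these sums all 3 stalk genes were narrowest in Jurkat replicate 1 and widest in Jurkat replicate 2. At RPLP0 the sum of Jurkat replicate 2 included a peak of 1779 bp at the far end that was shared with the neighbouring gene GCN1. The log2 ratio of RPLP0 in 6T-CEM over the Jurkat mean was −0.28, but 0.58 with windows of 0.25 kb, 0.32 with windows of 2.5 kb and 0.31 with bases inside the windows only.

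Each of the 4 genes linked to T-ALL had a near peak in every library. RPL5 (chr1:92831986-92841924), which with RPL11 carries the 5S RNA and binds MDM2, had 958 bp in 6T-CEM, 1004 bp in Jurkat replicate 1 and 946 bp in Jurkat replicate 2. RPL11 (chr1:23691779-23696835) had 1172 bp in 6T-CEM, 1079 bp in Jurkat replicate 1 and 1029 bp in Jurkat replicate 2. The values of these binding partners lay close together across the libraries. RPL22 (chr1:6185020-6199595), deleted in some T-ALL, had 1190 bp in 6T-CEM, 1285 bp in Jurkat replicate 1 and 1669 bp in Jurkat replicate 2. RPL10 (chrX:154398065-154402339), the site of a recurrent T-ALL mutation, had 1507 bp in 6T-CEM, 511 bp in Jurkat replicate 1 and 2330 bp in Jurkat replicate 2. At RPL10 the 6T-CEM value lay between Jurkat values that stood apart by a log2 ratio of −2.19 (replicate 1 over replicate 2). RPL22L1, the copy of RPL22, had 717 bp in 6T-CEM, 934 bp in Jurkat replicate 1 and 754 bp in Jurkat replicate 2.

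Of the 10 anaemia genes 9 had a near peak in every library, the exception being RPS24. Besides RPS19, RPS24, RPL5 and RPL11, RPL26 had 2392 bp in 6T-CEM, 2756 bp in Jurkat replicate 1 and 1261 bp in Jurkat replicate 2. RPS10 had 1498, 938 and 1173 bp, in the same order of libraries. It was wider in 6T-CEM than in both Jurkat libraries, but by less than 1.5-fold over replicate 2. RPS26 had 1325, 929 and 970 bp, RPS7 had 1097, 1739 and 1485 bp, and RPL35A had 494, 1160 and 593 bp. RPS7 and RPL35A were narrower in 6T-CEM than in both Jurkat libraries, and RPS26 was wider, but with windows of 2.5 kb RPS7 had a log2 ratio of 0.0054 against the Jurkat mean.

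All 5 members with functions beyond the ribosome were marked throughout. RPSA, also a laminin receptor, had 761 bp in 6T-CEM, 589 bp in Jurkat replicate 1 and 720 bp in Jurkat replicate 2. RPS3, which also takes part in DNA repair and NF-κB signalling, had 783, 1441 and 787 bp. RPS6, the substrate of the S6 kinases below mTOR, had 1165, 1304 and 908 bp. RPS27A, made as a fusion with ubiquitin, had 1916, 1705 and 855 bp. Of the marked copies, RPL39L, known from germ cells, had 890, 1250 and 813 bp, and RPS27L, induced by p53, had 1158, 838 and 533 bp.

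The comparison of the lines asked which members were wider or narrower in 6T-CEM than in both Jurkat libraries by at least 1.5-fold, among genes with a near peak in every library. Of the 75 members 5 were wider (6.67%), against 13.2% of all 5227 such genes, and 2 were narrower (2.67%), against 7.21%. Both shares were below the background. Between the Jurkat libraries 15 of 75 members were at least 1.5-fold wider in replicate 1 than in replicate 2 (20%), against 30.0% of all 5711 genes, and 11 were narrower (14.7%), against 16.3%. The median log2 ratio of 6T-CEM over the mean of the Jurkat libraries was 0.06 (SD 0.53 over 75 members), against 0.09 (SD 0.78) over all genes. For Jurkat replicate 1 over replicate 2 it was 0.07 (SD 0.65), against 0.19 (SD 0.91). The median was 0.17 against replicate 1 alone (0.015 over all genes) and 0.080 against replicate 2 alone (0.21 over all genes), so its place relative to all genes depended on the Jurkat library. Against each Jurkat library alone, over the 75 members, the SD of the log2 ratio of 6T-CEM was 0.68 for replicate 1 and 0.57 for replicate 2. The call depends on the use of both Jurkat libraries: set against replicate 1 alone, 15 of 77 members were wider in 6T-CEM (19.5%, against 24.1% of all 6340 genes) and 13 were narrower (16.9%, against 21.1%). Set against replicate 2 alone, 15 of 79 members were wider in 6T-CEM (18.99%, against 31.6% of all 5840 genes) and 7 were narrower (8.86%, against 12.4%). The 6T-CEM width lay above both Jurkat widths in 28 members, below both in 20 and between them in 27. This split was not counted over all genes, so it is no result about the members. Against the Jurkat mean the 6T-CEM width was larger in 42 members and smaller in 33, beside 2957 and 2267 of all 5227 genes.

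RPL15 (chr3:23916545-23924631), a large-subunit gene, had 1752 bp in 6T-CEM, 858 bp in Jurkat replicate 1 and 506 bp in Jurkat replicate 2. Its log2 ratio of 1.36 was the highest among the members. RPL29 (chr3:51993522-51995895), a large-subunit protein that also binds heparin, had 2015 bp in 6T-CEM, 532 bp in Jurkat replicate 1 and 1184 bp in Jurkat replicate 2, a log2 ratio of 1.23. A peak of 552 bp with a −log10 q of 2.26 made up part of the 6T-CEM sum. RPS13 (chr11:17074388-17077667), of the small subunit, had 2196 bp in 6T-CEM, 1240 bp in Jurkat replicate 1 and 1328 bp in Jurkat replicate 2, a log2 ratio of 0.77. RPL41 (chr12:56116633-56117967), which encodes the smallest ribosomal protein, had 2510 bp in 6T-CEM, 1647 bp in Jurkat replicate 1 and 1300 bp in Jurkat replicate 2, a log2 ratio of 0.77. RPS16 (chr19:39433137-39435949), of the small subunit, had 1645 bp in 6T-CEM, 910 bp in Jurkat replicate 1 and 1037 bp in Jurkat replicate 2, a log2 ratio of 0.76. At these 5 genes the 6T-CEM value stood above both Jurkat values, and at RPL29 and RPL15 the Jurkat values were themselves over 1.5-fold apart. When only bases inside the windows were counted, RPL29, RPS13 and RPS16 no longer passed, and RPL29 was also lost with windows of 2.5 kb and with peaks of −log10 q of 5 or more. RPL15 had no ratio with windows of 0.25 kb, with lists of equal length or with peaks of −log10 q of 5 or more. Its peak in Jurkat replicate 1 had a −log10 q of 4.39.

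In the other direction stood RPS27 and RPS9, both small-subunit genes. RPS27 (chr1:153990762-153992155) had 366 bp in 6T-CEM, 1033 bp in Jurkat replicate 1 and 903 bp in Jurkat replicate 2, a log2 ratio of −1.40. RPS9 (chr19:54200858-54207647) had 354 bp in 6T-CEM, 931 bp in Jurkat replicate 1 and 710 bp in Jurkat replicate 2, a log2 ratio of −1.21. With lists of equal length RPS9 had no ratio. The summits of these genes lay 15, 148 and 87 bp downstream of the start at RPS27, and 11, 25 and 68 bp downstream at RPS9, in 6T-CEM, Jurkat replicate 1 and Jurkat replicate 2. Both starts carry the pyrimidine run and the TATA letters in the sequences printed above.

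**Figure D3:**
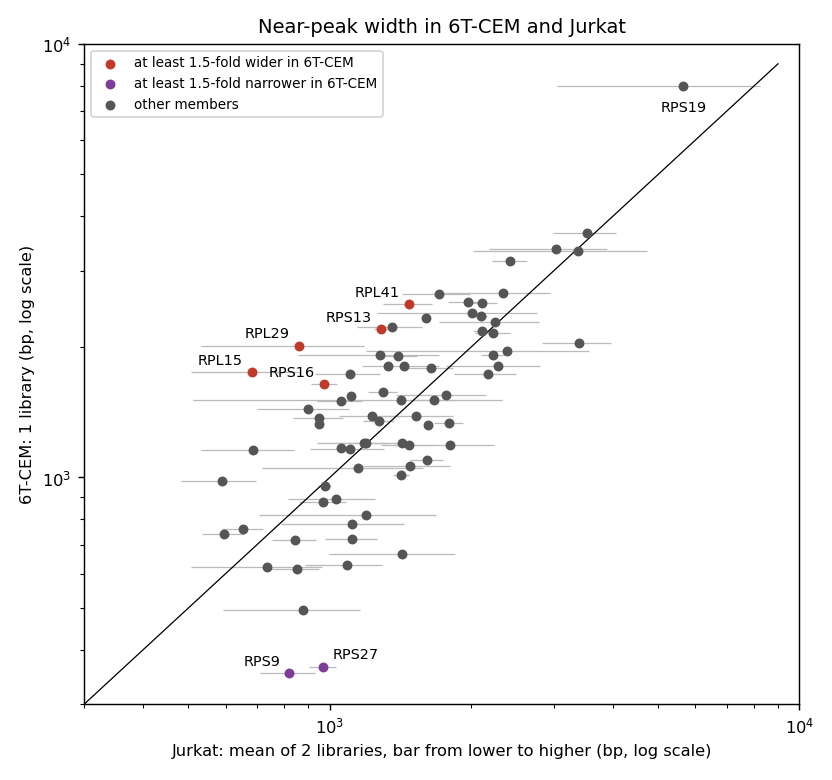
Near-peak width in 6T-CEM (vertical axis, bp, log scale) against the mean of the 2 Jurkat libraries (horizontal axis, bp, log scale, with a bar from the lower to the higher Jurkat value) for the 75 members with a near peak in every library, with the line of equality. The 5 members at least 1.5-fold wider and the 2 members at least 1.5-fold narrower in 6T-CEM than in both Jurkat libraries are coloured.

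Across the 75 members the order of widths was kept in part between libraries. Spearman's rho of width was 0.55 between 6T-CEM and Jurkat replicate 1, 0.73 between 6T-CEM and Jurkat replicate 2, and 0.64 between the Jurkat libraries. Over all 5227 genes the values were 0.48, 0.64 and 0.56. For the highest fold the members gave 0.07, 0.53 and 0.13, against 0.18, 0.45 and 0.27 over all 5227 genes. Among the members the fold order in Jurkat replicate 1 thus had little in common with either of the other lists. The genes of a library share its depth and its peak calling, and these values are a description.

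The peaks sat mainly at the annotated starts. Of the 67 members with a known strand, 66 had a peak within 1 kb of an annotated start in 6T-CEM, 63 did so in Jurkat replicate 1 and 66 did so in Jurkat replicate 2. The shares of the other 15745 genes with a promoter entry were 42.6%, 40.8% and 34.3%. RPL10L was the member without such a peak in 6T-CEM and in Jurkat replicate 2, and Jurkat replicate 1 also lacked RPS24, RPS12 and RPL36A. By the outermost ends, 53, 50 and 52 members had a near peak at the start end alone, 12, 12 and 13 had one at both ends, and none had one at the far end alone.

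Peaks at the start usually covered an annotated start base. At least 1 of them did so in 60 of 66 members in 6T-CEM (90.9%), 59 of 63 in Jurkat replicate 1 (93.7%) and 53 of 66 in Jurkat replicate 2 (80.3%), against 69.8%, 80.4% and 61.1% of the other genes with such a peak. The peak of highest fold at the start reached a median of 516.5 bp upstream and 818 bp downstream in 6T-CEM. In Jurkat replicate 1 it reached 410 bp upstream and 769 bp downstream, and in Jurkat replicate 2 it reached 336 bp upstream and 688.5 bp downstream. The summit, the highest point of a peak, lay downstream of the start in 56 of 66 members in 6T-CEM (84.8%), 38 of 63 in Jurkat replicate 1 (60.3%) and 50 of 66 in Jurkat replicate 2 (75.8%), against 69.5%, 66.2% and 68.5% of the other genes. The share was above that of the other genes in 6T-CEM and in Jurkat replicate 2 and below it in Jurkat replicate 1. The median summit lay 190 bp downstream in 6T-CEM, 128 bp in Jurkat replicate 1 and 191.5 bp in Jurkat replicate 2, against 172, 137 and 178 bp for the other genes.

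Summits moved little between libraries at some members and crossed the start at others. Of the 63 members with a summit in every library, 35 had it downstream in all 3, 5 had it upstream in all 3 and 23 were mixed. The same counts were not made for the other genes. The median range of a member's summit over the libraries was 208 bp, and for 18 members it was at most 100 bp. The 5 with upstream summits were RPLP0, RPS29, RPS28, RPL28 and RPL10. With upstream distances written as negative, the summit of RPLP0 stood at −314 bp in 6T-CEM, −218 bp in Jurkat replicate 1 and −402 bp in Jurkat replicate 2, and that of RPL28 at −1070, −678 and −1031 bp. RPL28, RPS28 and RPS29 shared their near peaks with the neighbouring genes TMEM238, NDUFA7 and KANK3, and LRR1, while RPL10 shared none in any library.

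**Figure D4:**
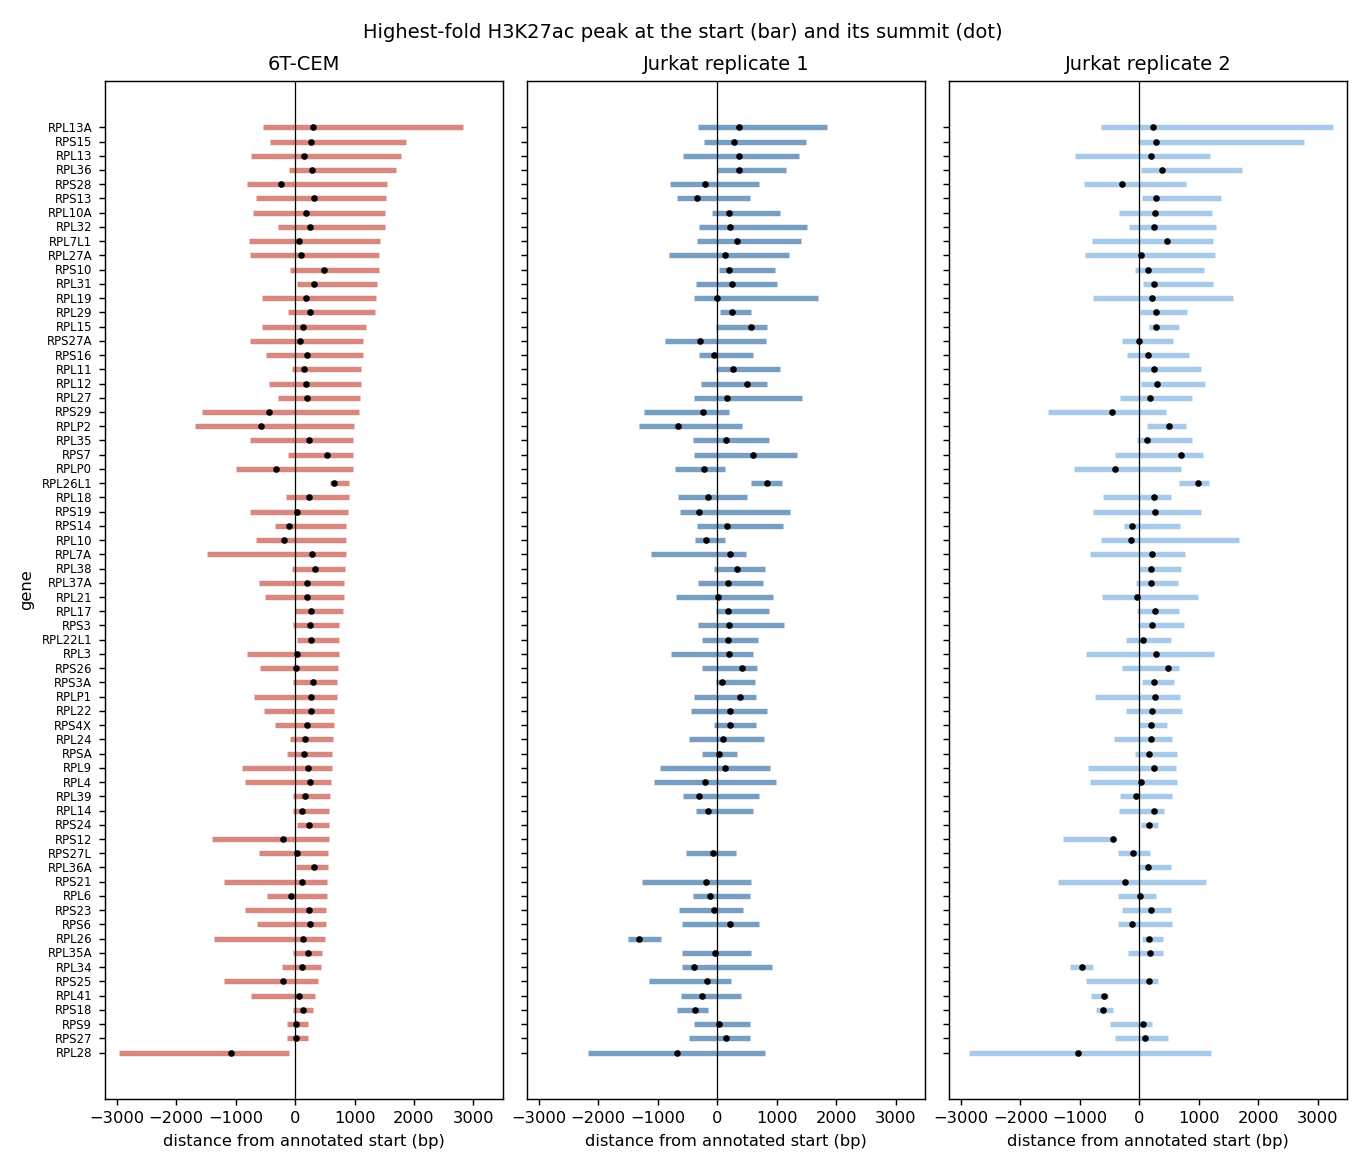
Extent of the H3K27ac peak of highest fold at the annotated start (bar) and its summit (dot) for each member with a known strand, by distance from the start (horizontal axis, bp, positive downstream), in 6T-CEM, Jurkat replicate 1 and Jurkat replicate 2. The median summit stands at 190, 128 and 191.5 bp downstream, and RPS24, RPS12 and RPL36A have no bar in Jurkat replicate 1.

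Many ribosomal protein genes have a close neighbour, and a peak there cannot be given to either gene alone. In 6T-CEM 29 of 81 marked members shared a near peak with another protein-coding gene (35.8%), in Jurkat replicate 1 28 of 77 (36.4%) and in Jurkat replicate 2 29 of 79 (36.7%), against 38.5%, 39.4% and 39.6% of all marked genes. No 2 members shared a peak. Such pairs included RPL4 with SNAPC5 and ZWILCH, RPL41 with ZC3H10, and RPS27 with RAB13, in all 3 libraries. Members that shared no peak had median widths of 1324 bp in 6T-CEM, 1258 bp in Jurkat replicate 1 and 1181 bp in Jurkat replicate 2, against 1013, 988 and 880 bp for all genes that shared none. The median of the members was thus also the higher where no shared peak was involved.

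The human genome also holds a large number of processed copies of ribosomal protein genes, inserted from messenger RNA without the promoter. Of 1984 annotated ribosomal protein pseudogenes, 2.77% had a near peak in 6T-CEM, 1.46% did so in Jurkat replicate 1 and 2.02% did so in Jurkat replicate 2, against 3.91%, 2.35% and 3.45% of 14474 other pseudogenes. Among those over 2 kb from any protein-coding gene the shares were 1.82%, 0.779% and 1.12% of 1156 ribosomal protein pseudogenes, against 2.72%, 1.64% and 2.57% of 9253 others. The pseudogenes were thus marked far less often than the genes they derive from. Reads that map to both a gene and its copies can be lost or misplaced in alignment, and the sources used here do not say how such reads were handled.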

How the data were processed

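H3K27ac peak lists of 3 libraries were used. The submitters' processing notes name the aligner Bowtie2 2.2.5, the peak caller MACS2 2.2.7 and build hg38, without options, and peaks were called per library, as the deposited lists show. CUT&Tag is the assay in the series description, whereas the labels' protocol speaks of sonicated nuclei. The deposited lists have no header and give for each peak the authors' fold enrichment (a ratio over the caller's background), −log10 p-value, −log10 q-value, score and summit. These values were not recalculated, and without read counts the depth is unknown.

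Only chromosomes 1 to 22 and X were used. Gene ends came from RefSeq on GRCh38.p14, the release of the same build, and strands and starts from its promoter table, which matched 67 of the 84 members. A gene with several annotated starts took the start nearest to the summit. Near peaks, their summed widths, and summits were computed with Python 3.11.15, NumPy 2.4.6, pandas 2.3.3 and SciPy 1.17.1. Figures were drawn with matplotlib 3.10.9. A call between the lines needed a width at least 1.5-fold beyond both Jurkat libraries, and no p-value was computed, since 6T-CEM had 1 library. The overlap code was tested on simulated data, with 0 differences over 500 genes.

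The 84 members and the lists were chosen with earlier results of these data known. Named members lacked a near peak in some library, were among the 5 widest or 5 narrowest of a library, passed the call, or stood in a list (stalk, T-ALL, anaemia, functions beyond the ribosome, paralogous copies). Some genes that this rule would name are not reported here. Genes named as sharing a peak, and those listed for a motif or a summit side, were chosen after their values were seen. Alternatives were other windows (0.25 kb and 2.5 kb), peaks with −log10 q of 5 or more, lists of equal length, bases inside the windows only, a 2-fold call and each Jurkat library left out.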

Additional observations from a re-analysis of the deposited data

How the results depend on the processing

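No paired analysis was possible because 6T-CEM has 1 library and shares no replicate numbering that could pair it with the Jurkat libraries. The counts of members with a near peak kept within 1.5 times of the reported counts under every alternative run, and no called member changed direction. The median near-peak width in 6T-CEM was 1572 bp with windows of 2.5 kb and 1264 bp with bases inside the windows only. In Jurkat replicate 1 it was 1258 bp with bases inside the windows only. In Jurkat replicate 2 it was 1345 bp with lists of equal length, 1362 bp with windows of 2.5 kb and 1175 bp with bases inside the windows only. The count of members wider in 6T-CEM was 3 with −log10 q of 5 or more (11.6% of all genes), 3 with lists of equal length (11.7%), 2 with bases inside the windows only (9.22%) and 1 with a 2-fold call (5.89%). The count narrower in 6T-CEM was 1 with lists of equal length (6.30%). With a single Jurkat library left for the comparison, 15 members were wider without either Jurkat replicate (31.6% of all genes without replicate 1 and 24.1% without replicate 2), and 7 without replicate 1 (12.4%) and 13 without replicate 2 (21.1%) were narrower. The median log2 ratio was 0.080 without replicate 1 (0.21 over all genes) and 0.17 without replicate 2 (0.015 over all genes). Fewer libraries make the call easier to pass. RPL15, RPL41, RPS27 and RPS9 kept their call in every setting in which they had a value at the 1.5-fold call. A call needs both Jurkat libraries, so leaving 1 of them out could not undo it. RPL15 had no value with −log10 q of 5 or more, lists of equal length or windows of 0.25 kb. RPL41 and RPS9 had none with lists of equal length. Of 250 alternative log2 ratios for 37 named members 234 moved by no more than that member's own spread (1 SD) between the Jurkat libraries, and 16 moved further. A member whose Jurkat values stood far apart could thus move far and still count as within it. RPL10 counted so, with 0.085 in the main setting and 1.56 without replicate 2. Settings that leave out a Jurkat library could hardly exceed this spread, so the 234 do not measure how stable the ratios were. In all, 25 of the 250 had the other sign, over 17 members, none of them called. Among the 16 these were RPL22 (0.10 with windows of 0.25 kb), RPL28 (−0.31 with lists of equal length) and RPS7 (0.0054 with windows of 2.5 kb). For the other moved values the cause was not tested. The lists give no counts, so a missing peak cannot be told apart from a shallow library.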
